A study of Mus musculus with 4 samples.

Results

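The lysyl oxidase family comprises Lox (ENSMUSG00000024529) and the lysyl oxidase-like genes Loxl1 (ENSMUSG00000032334), Loxl2 (ENSMUSG00000034205), Loxl3 (ENSMUSG00000000693) and Loxl4 (ENSMUSG00000025185). These 5 genes were taken by symbol from the 21885 genes counted in Visium sections of mouse hearts, by a rule that uses no measured value, though the family was proposed with earlier results of these data known. Lysyl oxidases are secreted, copper-dependent amine oxidases. They oxidise lysine residues of collagen and elastin, and the aldehydes formed then condense into the covalent crosslinks that make a collagen or elastin fibre strong and insoluble. In the infarcted heart this reaction turns newly laid collagen into a scar that resists rupture, and excess crosslinking is known to stiffen the ventricle.

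The sections came from 4 Collagen1a1-GFP+ hearts of mice aged 8 to 12 weeks, which carry a GFP reporter driven by the collagen I promoter and no other allele named in the labels. The groups were an uninjured control (1 section), hearts 3 days after myocardial infarction (3 dpi, 1 section) and hearts at 5 dpi (2 sections). Infarction was made by tying off the left anterior descending coronary artery for good. Each section stands for 1 heart, so the control and 3 dpi have no replicate. The control, the 3 dpi heart and a 5 dpi heart are labelled female and the other 5 dpi heart male, but 704 UMIs of Y-linked genes lay in the female-labelled 5 dpi section, 1 in the male-labelled one, and 0 in both other sections. The 5 dpi sections are therefore named by their labels only.

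A UMI is 1 captured transcript molecule, and a Visium spot covers a small region that can hold several cells of different types. After spots with few UMIs or genes were left out, 5845 spots remained, between 1146 and 1741 a section, with 3742105 to 9540940 non-mitochondrial UMIs a section. The family had 38634 UMIs, of which 341 lay in the control section, 8584 at 3 dpi, and 17809 and 11900 in the female-labelled and male-labelled 5 dpi sections. Mitochondrial transcripts took 40.1% of the UMIs in the control but 13.3% to 21.4% in the infarcted sections. Levels are therefore given as CPM, in which the non-mitochondrial UMIs of each section or zone are brought to the same total, with 95% Poisson intervals that cover counting error only. In such sections, fewer cells of a type and less RNA per cell cannot be told apart.

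Zones were drawn from 12 cardiomyocyte genes, none of them a family member. The infarct zone (IZ) consists of connected spots with a low share of these genes. The tissue around it was divided by distance: BZ2, the inner border zone, takes in spots up to 2 steps from the IZ, BZ1, the outer border zone, those 3 to 4 steps off, and RZ, the remote zone, all others. The IZ held 882 spots at 3 dpi, 1061 in the female-labelled 5 dpi section and 684 in the male-labelled section. The RZ held 380, 200 and 533 spots.

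**Figure D1:**
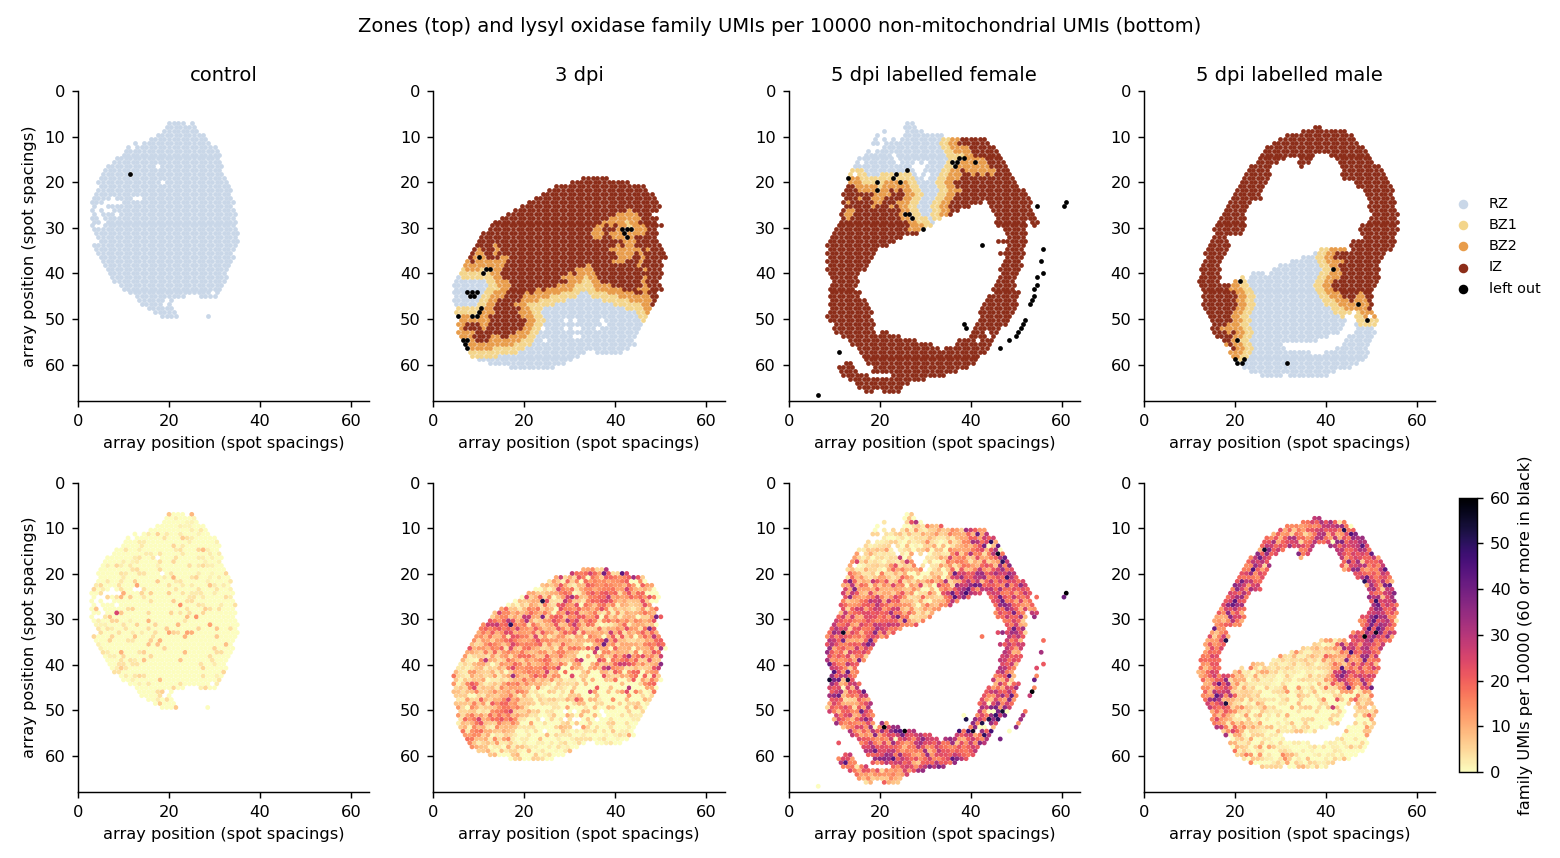
Spots of the 4 sections at their array positions in spot spacings, coloured by zone (top) and by family UMIs per 10000 non-mitochondrial UMIs of the spot (bottom). The control is pale throughout, with 341 family UMIs in 1146 spots, and the dark spots of the infarcted sections follow the IZ.

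In the uninjured heart the family was nearly silent apart from Loxl1, the member best known for elastic fibre assembly. Loxl1 was at 76.7 CPM in the control (interval 68.1 to 86.1, 287 UMIs) and made up 84.2% of the family's UMIs there. Loxl2 and Loxl3 were at 6.95 CPM (26 UMIs) and 6.68 CPM (25 UMIs). Lox, the founding member and main crosslinker of fibrillar collagen, had 3 UMIs in the whole section, or 0.80 CPM with an interval from 0.17 to 2.34. Loxl4 had 0 UMIs, with an interval up to 0.99 CPM. A limit of 3 UMIs, used below, is 0.80 CPM.

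Each of the 5 members had a higher CPM in each of the 3 infarcted sections than in the control. With 1 control heart there is no test, and 62.8% of the 13753 genes with at least 10 UMIs did the same. A rise of at least 2-fold in each infarcted section was met by 28.1% of those genes and by all 5 members, Loxl4 by its lower bound. Lox rose from the lowest of the detected levels to 240 CPM at 3 dpi, 598 CPM in the female-labelled 5 dpi section and 390 CPM in the male-labelled section. Its ratio to the control was 299.5 at 3 dpi, but the 3 control UMIs leave a counting interval from 102 to 1454. At 5 dpi the ratios were 746 (interval 255 to 3620) and 487 (interval 166 to 2362).

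Loxl1 stood at 460, 734 and 659 CPM in the same order of sections, which is 6.004, 9.57 and 8.59 times the control. Loxl3, a lysyl oxidase needed for collagen in cartilage, palate and muscle attachment, stood at 161, 365 and 266 CPM, or 24.1, 54.6 and 39.9 times the control. Loxl2, which crosslinks basement membrane collagen IV and also binds the transcription factor Snail, stood at 159, 166 and 112 CPM, or 22.9, 23.9 and 16.1 times the control. Among these 4 members, that with the highest control level had the smallest ratio, and no interval of an infarcted section overlapped that of the control.

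Loxl4, which had 0 UMIs in the control, was found with 31 UMIs at 3 dpi and with 35 and 28 UMIs at 5 dpi. Its level of 3.70, 3.67 and 3.37 CPM was 4.62, 4.58 and 4.20 times the level that 3 UMIs would give in the control. With the counting error of both sections, the lower 95% limits of the ratios to the control were 3.54, 3.53 and 3.20. The intervals of these 3 levels overlap one another.

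**Figure D2:**
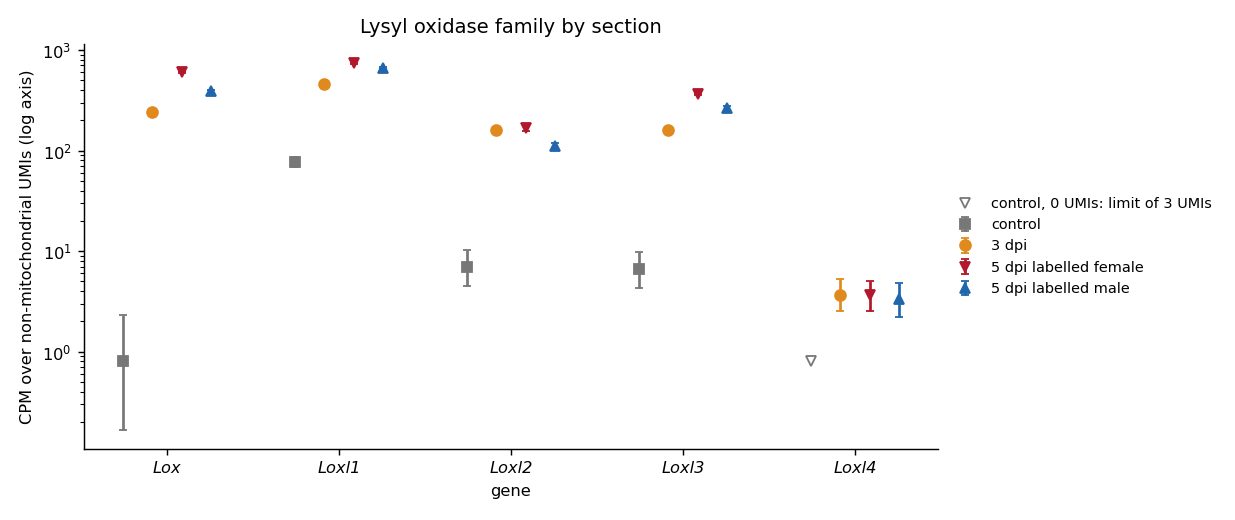
CPM of the 5 genes in each section on a log axis, with 95% Poisson intervals (some smaller than the symbols); the open triangle is the limit of 3 UMIs for Loxl4 in the control. Lox spans the widest range, from 0.80 to 598 CPM, whereas Loxl4 stays between 3.37 and 3.70 CPM after infarction.

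Levels were next compared between the 2 time points. Lox, Loxl1 and Loxl3 had a higher CPM in both 5 dpi sections than at 3 dpi, as did 32.2% of the 13753 genes, and Loxl2 and Loxl4 did not. Within the IZ alone, the 3 dpi level of Lox was 334 CPM and its 5 dpi levels were 705 and 618 CPM. Loxl3 went from 227 CPM to 430 CPM in both 5 dpi sections, a ratio of 1.89 in each. Loxl1 went from 570 CPM to 815 and 945 CPM. Higher IZ levels in both 5 dpi sections were seen in 33.7% of the 13235 genes with at least 10 UMIs in the IZ. The IZ itself differed, as its core, defined below, held 342 of 882 spots at 3 dpi. At 5 dpi the core held 813 of 1061 and 533 of 684 spots. In the female-labelled section, the RZ ratios to 3 dpi were 2.40 for Lox, 1.43 for Loxl1 and 2.55 for Loxl3. In the male-labelled section they were 1.37, 0.977 and 0.941.

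Loxl2 ran the other way in the IZ, from 219 CPM at 3 dpi to 188 and 166 CPM at 5 dpi. The ratios were 0.861 (counting interval 0.795 to 0.933) and 0.758 (0.691 to 0.831), and a lower IZ level in both 5 dpi sections was shared by 44.1% of genes. Loxl4 was at 5.41, 4.25 and 4.75 CPM, which cannot be ranked within counting error. With 1 heart at 3 dpi no time difference was tested. Other genes in the IZ moved between the time points as well. Cardiomyocyte genes went from 20457 to 6719 and 8676 CPM and macrophage markers from 6470 to 10176 and 9620 CPM. Fibroblast markers went from 1461 to 1999 and 2227 CPM and globin genes from 3331 to 22826 and 11897 CPM. Relative to UMIs of the GFP reporter, Lox, Loxl1, Loxl2 and Loxl3 in the IZ were lower in both 5 dpi sections than at 3 dpi. The part of these was not tested. In the male-labelled section, the matrix also holds 623 spots not marked as lying under tissue. Loxl2 was at 209 CPM in those spots, above the IZ of that section, while Lox, Loxl1 and Loxl3 were at 515, 560 and 266 CPM, below it.

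Across the zones of each infarcted section, the tested members increased towards the infarct. Lox was at 32.4, 90.8, 149 and 334 CPM in RZ, BZ1, BZ2 and IZ at 3 dpi. The same 4 zones of the female-labelled 5 dpi section had 77.6, 179, 303 and 705 CPM, and those of the male-labelled section 44.3, 101, 169 and 618 CPM. Every step towards the infarct was upward in all 3 sections for Lox, Loxl1 and Loxl3. Loxl2 had an exception in the male-labelled section, where BZ1 was at 66.4 CPM and BZ2 at 56.4 CPM, on 29 UMIs each.

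UMIs were summed by zone and section and compared with the section as a block (edgeR's quasi-likelihood test, Benjamini-Hochberg adjustment over 9444 genes). The low-count filter left 4 of the 5 members. Loxl4 was not among them, with 1 to 3 UMIs in the RZ of each section. Between IZ and RZ all 4 were called higher, beside 26.8% of the genes tested. The log2 fold change of Lox was 3.04 (SE 0.16, edgeR adjusted p = 3.9e-12), from 9.08-fold to 13.9-fold in CPM over the 3 sections. That of Loxl3 was 3.00 (SE 0.20, edgeR adjusted p = 8.8e-11), from 6.80-fold to 18.4-fold. Loxl2 rose by 1.92 (SE 0.16, edgeR adjusted p = 4.2e-09) and Loxl1 by 1.28 (SE 0.14, edgeR adjusted p = 1.9e-07). Their median log2 fold change was 2.46, against 0.05 over all genes tested, and 99.3% and 99.2% of genes lay below Lox and Loxl3. The TMM scaling shifted this comparison by -0.42 on the log2 scale relative to CPM, so these fold changes are smaller than the CPM ratios.

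The change already reached the tissue next to the infarct. Between BZ2 and RZ all 4 members were called higher, beside 4.21% of genes. Lox rose by 1.90 on the log2 scale (SE 0.16), Loxl3 by 1.61 (SE 0.22), Loxl2 by 1.07 (SE 0.19) and Loxl1 by 0.82 (SE 0.15), with the highest edgeR adjusted p of the 4 at 0.0010. A limit of the IZ taken from the control section instead ended all 4 of these calls, with log2 fold changes of 1.72 for Lox, 1.54 for Loxl3, 0.94 for Loxl2 and 0.44 for Loxl1. That limit left few spots outside the IZ, with 245, 17 and 88 in the RZ of the 3 sections and 80, 45 and 70 in BZ1. Without the section as a block, Lox and Loxl2 alone were called. In BZ2 against RZ, 4 of 8 macrophage markers rose, and 7 of 12 cardiomyocyte genes and all 4 globin genes fell, and their part was not tested. In BZ1, farther out, Lox was called alone among the members, with a log2 fold change of 1.20 against the RZ (SE 0.18, edgeR adjusted p = 0.0091). It was 1 of 6 genes called higher there, 0.0635% of those tested. This call was lost without either of the 5 dpi sections (log2 fold change 1.25 and 1.24), without the section as a block (1.17) and with the IZ limit taken from the control (0.37). The Lox level in BZ1 was 2.81, 2.31 and 2.27 times that in the RZ of the same section.

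Crossing from BZ2 into the IZ, all 4 members rose again, beside 14.5% of genes. Loxl3 had the largest change among them (log2 fold change 1.39, SE 0.18), followed by Lox (1.15, SE 0.14), Loxl2 (0.85, SE 0.16) and Loxl1 (0.46, SE 0.14, edgeR adjusted p = 0.0145). The call of Loxl1 was lost without either 5 dpi section, without the section as a block and with a lower limit on the cardiomyocyte share. Across the same step all 8 macrophage and the 3 tested neutrophil markers rose, and 4 of 6 endothelial markers and the 12 cardiomyocyte genes fell. Of 5 mural markers 1 rose and 2 fell. The part of these markers was not tested. The order of Lox and Loxl3 differs between the comparisons, but their fold changes were not tested against each other.

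In the RZ of the infarcted hearts, the 4 tested members were also above their control level. The share of all genes above the control was not counted for the RZ. Over whole infarcted sections it was 62.8%, so the count of members alone says little. Lox in the RZ was 40.4, 96.8 and 55.3 times its control level, on 43, 65 and 110 UMIs in the RZ and 3 in the control. For Loxl1 the ratios were 2.75, 3.92 and 2.68. For Loxl2 they were 5.74, 7.39 and 3.88, and for Loxl3 3.72, 9.47 and 3.50, each with a counting interval above 1. The section with the highest RZ levels of all 4, the female-labelled 5 dpi section, has the smallest RZ, with 200 spots. The summed macrophage markers were also higher in these RZs (1290 to 1715 CPM) than in the control (789 CPM). Fibroblast markers were lower (1549 to 2107 against 2484 CPM). Globin genes were at 6873, 33251 and 15423 CPM against 8667 CPM, and neutrophil markers at 22, 80 and 25 CPM against 16.6 CPM. The part of these in the levels was not tested.

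The zones were set by cardiomyocyte genes, and other cell types moved with them. All 8 macrophage markers rose between IZ and RZ, from a summed 1290 to 1715 CPM in the RZ to 6470 to 10176 CPM in the IZ. The 3 tested of 4 neutrophil markers rose as well, from 22 to 80 CPM to 223 to 253 CPM. Of 6 endothelial markers 4 fell, and 2 of 5 mural markers rose and 2 fell. Of 7 fibroblast markers 2 rose and 2 fell, and their sum was 1549 to 2107 CPM in the RZ and 1461 to 2227 CPM in the IZ. Their part in the family's change was not tested.

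**Figure D3:**
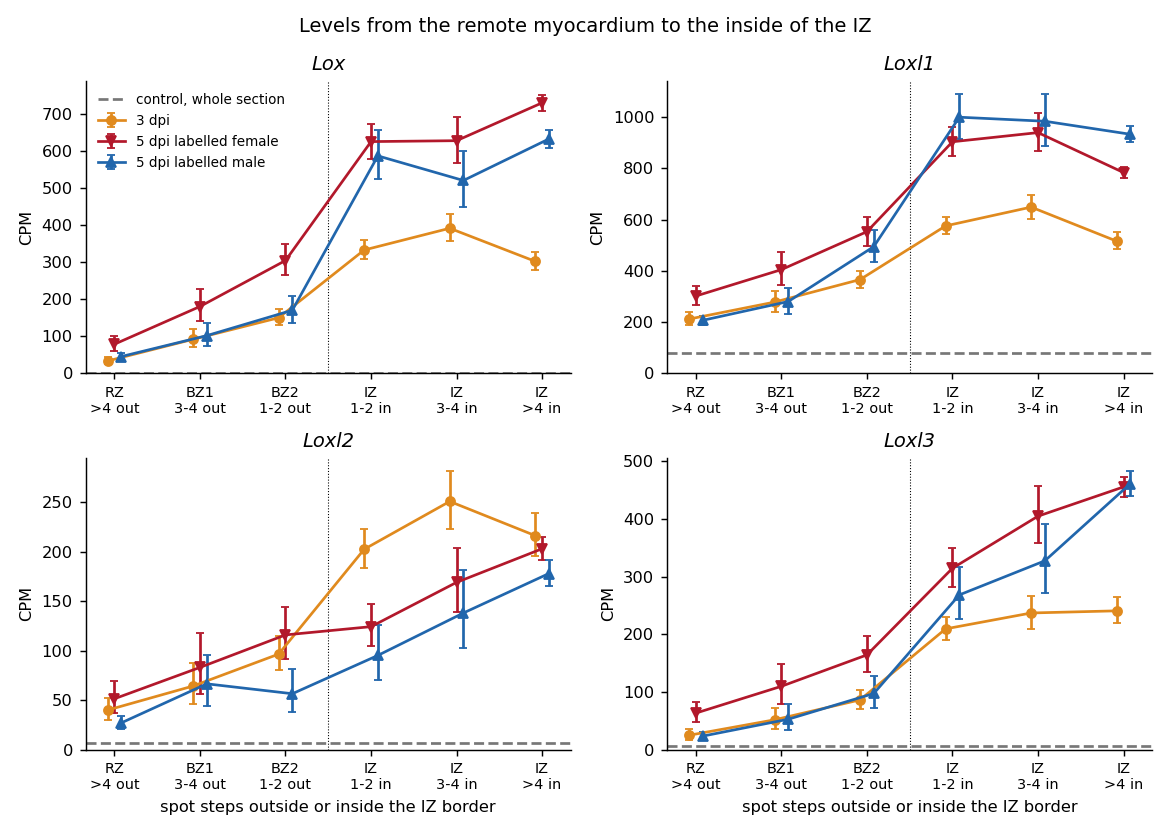
CPM of the 4 tested genes by spot steps outside (left of the dotted line) or inside the IZ border, with 95% Poisson intervals and the control level as a dashed line. Lox, Loxl1 and Loxl3 climb across the border in each section, and the 3 dpi curve of Loxl2 lies above both 5 dpi curves inside the IZ.

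Within the IZ, the rim was compared with the core. The rim was taken as the first 2 spot steps inside the border and the core as the spots more than 4 steps in. Loxl3 was at 209, 314 and 268 CPM in the rim of the 3 sections and at 241, 455 and 461 CPM in the core, higher in 3 of 3 (log2 fold change 0.35, SE 0.12, edgeR adjusted p = 0.0449). Such a rise was called for 9.44% of 9644 genes. Loxl1 fell by 0.31 on the log2 scale (SE 0.11, edgeR adjusted p = 0.0394), with 575, 904 and 1000.3 CPM in the rim and 515, 784 and 934 CPM in the core. A fall was called for 14.1% of genes. Loxl2 was higher in the core in 3 of 3 sections but missed the threshold (log2 fold change 0.38, SE 0.14, edgeR adjusted p = 0.0608). At 3 dpi the difference was slight, at 216 CPM in the core against 202 CPM in the rim. At 5 dpi the values were 203 against 124 CPM and 178 against 95.1 CPM. Lox was at 332, 624 and 586 CPM in the rim and at 301, 729 and 632 CPM in the core (log2 fold change -0.08, edgeR adjusted p = 0.72). The TMM scaling shifted this comparison by -0.16 on the log2 scale relative to CPM, which is a part of these values. The log2 CPM ratios of Loxl1 were -0.16, -0.21 and -0.10.

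These differences within the IZ are small, and both calls were lost without the female-labelled section, without the male-labelled section, without the section as a block and with DESeq2. With the IZ limit taken from the control, the direction of Loxl1 turned, to a called log2 fold change of 0.67 (edgeR adjusted p = 0.0107), and Lox moved from -0.08 to 1.35. That limit widened the IZ to 1224, 1313 and 1014 spots in the 3 sections. From rim to core, 5 of 8 macrophage markers and the 3 tested neutrophil markers rose. Of 7 fibroblast markers 4 fell, with a median log2 fold change of -0.45, as did 2 of 6 endothelial markers, the 2 tested mesothelial markers and the 12 cardiomyocyte genes. The 1 tested lymphocyte marker rose, and of 5 mural markers 1 rose and 2 fell. The part of these in the members' values was not tested.

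The make-up of the family changed with position, as shares of its UMIs. Loxl1 fell from 84.2% in the control (exact binomial interval 79.8% to 87.9%) to between 60.9% and 68.3% in the RZ and between 38.0% and 43.7% in the IZ. Lox went from 0.88% in the control to between 10.5% and 15.7% in the RZ and between 24.6% and 32.9% in the IZ. Per 100 Loxl1 UMIs there were 1.05 of Lox in the control. At 3 dpi there were 15.4 in the RZ and 58.6 in the IZ (interval 55.1 to 62.3), and the 5 dpi sections went from 25.8 to 86.4 and from 21.5 to 65.4.

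A second shift ran between the 3 dpi section and the 5 dpi sections. In the IZ there were 104 Loxl3 UMIs per 100 of Loxl2 at 3 dpi (interval 95.6 to 113), and 229 and 259 at 5 dpi. Loxl2 made up 16.1% of the family in the IZ at 3 dpi and 8.79% and 7.66% at 5 dpi. Since both genes of a ratio come from the same spots, such ratios do not depend on the CPM denominator. UMI shares of different genes also reflect how well each 3′ end was captured. Rankings of genes within a sample, as in the control, are therefore of captured UMIs only.

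**Figure D4:**
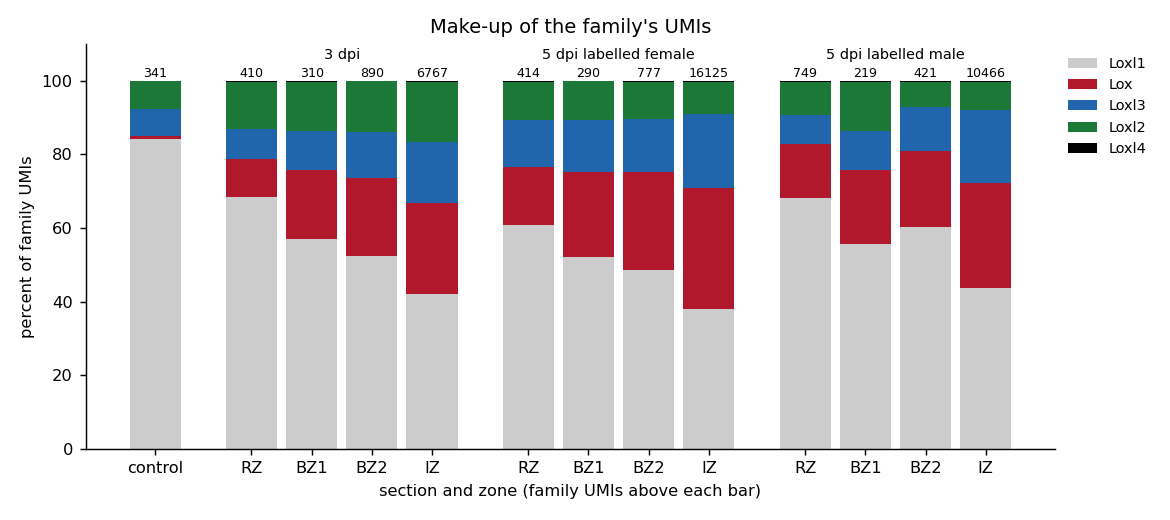
Stacked shares of the family's UMIs for each gene in the control and in the 4 zones of each infarcted section, with the number of family UMIs above each bar. The grey Loxl1 share falls from 84.2% in the control to 38.0% to 43.7% in the IZ, while the red Lox share grows.

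The members were also found in more spots. To compare shares, each spot was thinned to 1534 non-mitochondrial UMIs, leaving out shallower spots. After thinning, Lox was found in 0 of 1031 control spots (exact binomial interval up to 0.357%). In the RZ it was found in 3.17%, 11.1% and 4.64% of spots of the 3 sections, and in the IZ in 38.7%, 63.6% and 58.1%. Before thinning, the IZ shares were 73.0%, 92.5% and 94.0%, beside 0.262% of control spots. Loxl4 was found in 1.13%, 0.899% and 1.32% of thinned IZ spots. At least 3 members were found together in 0% of control spots and in 0.317%, 3.16% and 0.193% of RZ spots, against 15.1%, 36.4% and 30.9% of IZ spots. Such joint shares rise with the single shares and were not tested beyond them, and as a spot holds several cells, they do not show that a single cell carried the members.

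Within the IZ, spots were ranked by the share of UMIs of a set of genes and cut into 3 equal classes, and the highest class was compared with the lowest. Ranked by Col1a1, Col1a2 and Col3a1, the chains of the main fibrillar collagens, all 4 tested members were higher in collagen-rich spots, beside 4.58% of 10527 genes. Lox was at 233, 544 and 476 CPM in collagen-poor spots and at 440, 844 and 779 CPM in collagen-rich spots (log2 fold change 0.70, SE 0.07, edgeR adjusted p = 2.4e-06). Loxl1 rose by 0.60 (SE 0.06), Loxl2 by 0.57 (SE 0.08) and Loxl3 by 0.53 (SE 0.07) on the log2 scale, with the highest edgeR adjusted p at 0.00013. All 4 were higher in 3 of 3 sections. Without the section as a block the log2 fold changes were 0.51 to 0.67 but none of the 4 was called (edgeR adjusted p from 0.68 to 0.77). The cardiomyocyte genes summed to 3530 to 14945 CPM in the rich and 10801 to 23979 CPM in the poor spots. The 4 globin genes of red blood cells were also lower in collagen-rich spots, with a median log2 fold change of -1.40, and 4 of 7 fibroblast markers were higher, with a median of 0.50. The part of these differences was not tested.

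Ranked by 8 macrophage markers, 2 members were called lower in macrophage-rich spots, beside 15.2% of 10454 genes. Loxl2 fell by 0.34 (SE 0.09, edgeR adjusted p = 0.0093), from 215, 207 and 190 CPM in the poor class to 208, 170 and 135 CPM. Lox fell by 0.28 (SE 0.09, edgeR adjusted p = 0.0198), from 333, 792 and 633 CPM to 314, 597 and 582 CPM. Both were lower in 3 of 3 sections, and both calls were lost with DESeq2, without the section as a block, with 2 classes in place of 3 and without the female-labelled 5 dpi section. Without the male-labelled section Lox alone was called. Loxl1 and Loxl3 missed the threshold, with log2 fold changes of -0.18 and -0.02 and edgeR adjusted p of 0.12 and 0.91. All 12 cardiomyocyte genes were lower in the macrophage-rich class, with a sum of 8696, 1937 and 1631 CPM against 32198, 14488 and 18266 CPM. The 4 globin genes and 3 of 6 endothelial markers were lower there as well. The 3 tested neutrophil markers and 3 of 7 fibroblast markers were higher, and 1 fibroblast marker was lower. Of the sparser lists, 1 of 3 tested mesothelial markers was lower and the 1 tested lymphocyte marker higher. The part of these in the members' values was not tested.

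No member was called between endothelial-rich and endothelial-poor spots, where 1.79% of 10476 genes were called higher, 0.897% lower, and 1339 genes had an unadjusted p under 0.05 in edgeR. Lox came closest, with a log2 fold change of -0.25 (SE 0.07, edgeR adjusted p = 0.0563), lower in 3 of 3 sections. Loxl3 was also lower in 3 of 3 (log2 fold change -0.23, SE 0.07, edgeR adjusted p = 0.0814). In endothelial-rich spots 6 of 12 cardiomyocyte genes and 3 of 5 mural markers were higher, and 2 of 8 macrophage and the 2 tested mesothelial markers lower. Leaving out the 3 dpi section brought 1 member past the threshold, while DESeq2 called 0. No member was called between mural-rich and mural-poor spots, where 2.28% of 10468 genes were called higher, 1.93% lower, and 1503 had an unadjusted p under 0.05. Mural cells are the smooth muscle cells and pericytes of vessel walls. The members' log2 fold changes there lay between -0.12 and 0.09, and DESeq2 called 0 as well. In mural-rich spots 5 of 6 endothelial markers, 5 of 12 cardiomyocyte genes and 3 of 7 fibroblast markers were higher, and 6 of 8 macrophage markers, 2 of 3 tested neutrophil markers, the 3 tested mesothelial markers and the 4 globin genes lower.

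**Figure D5:**
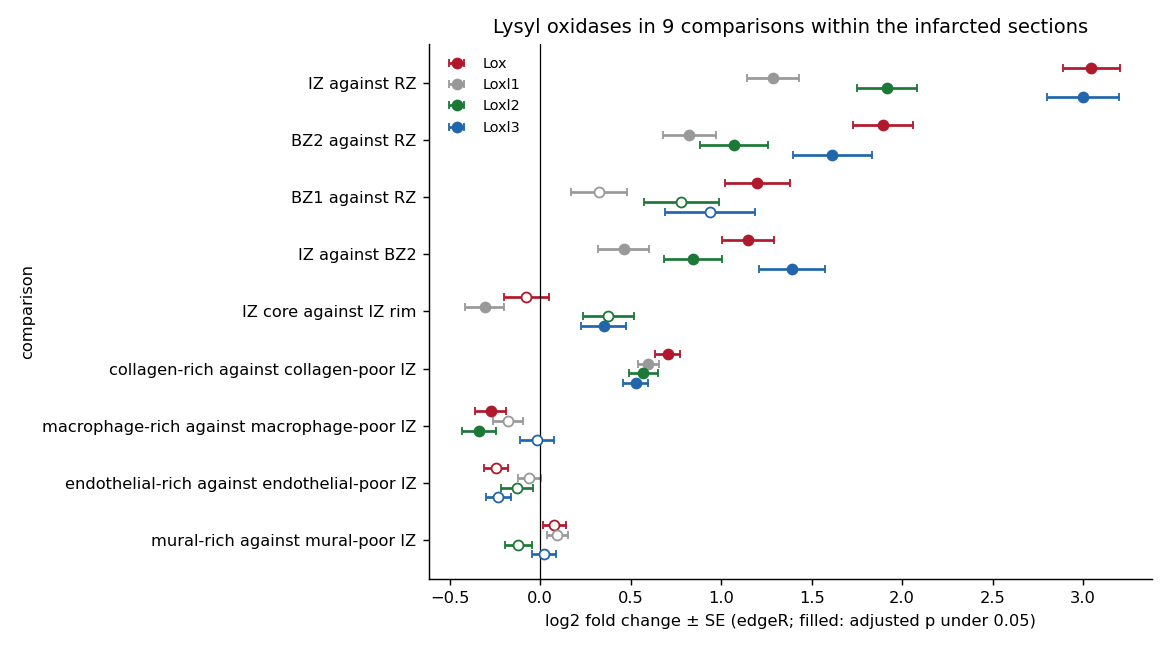
Log2 fold changes with SE of the 4 tested genes in 9 comparisons within the infarcted sections, filled where the edgeR adjusted p is under 0.05. All 4 are filled and positive for IZ against RZ, BZ2 against RZ, IZ against BZ2 and collagen-rich spots, and the other comparisons hold 5 filled symbols in all.

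The substrates and helpers of the enzymes were measured in the same zones. Of 8 fibrillar collagen genes 7 were tested between IZ and RZ and 7 rose, with a median log2 fold change of 2.12. Col1a1 went from 557, 782 and 390 CPM in the RZ to 3143, 6321 and 5212 CPM in the IZ (log2 fold change 2.69, SE 0.18, edgeR adjusted p = 7.3e-11). Col11a1, a minor chain that controls fibril diameter, had the largest fold change of the list at 4.23 (SE 0.37), from 1.21 to 4.78 CPM up to 12.6 to 87.4 CPM. Per 1000 UMIs of Col1a1, Col1a2 and Col3a1, Lox was at 1.72 in the control. It stood at 14.6, 27.5 and 24.3 in the RZ and at 31.8, 35.1 and 34.8 in the IZ. Loxl1 fell on this scale, from 164 in the control to 94.9, 107 and 113 in the RZ and 54.3, 40.6 and 53.2 in the IZ. Loxl2 per 1000 collagen UMIs in the IZ was 20.8 at 3 dpi and 9.39 and 9.34 at 5 dpi.

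Of 6 collagen IV genes, the basement membrane collagens, 3 were tested and none was called between IZ and RZ. Their summed level was 798, 1533 and 1314 CPM in the RZ and 1558, 1915 and 2098 CPM in the IZ. Between BZ2 and RZ 2 of the 3 rose, and 3 fell from the rim to the core of the IZ. Of 15 tested elastic fibre genes 11 rose and 1 fell between IZ and RZ. Efemp2, also called fibulin-4, which tethers Lox to elastin, went from 69.3, 91.9 and 63.3 CPM to 239, 395 and 469 CPM (log2 fold change 1.87, SE 0.17). Ltbp2, a microfibril protein that holds fibulin-5, had the largest change of the list (2.89, SE 0.23). Eln, tropoelastin itself, was lower in the IZ than in the RZ at 3 dpi, at 43.7 against 84.3 CPM. At 5 dpi it was higher there, at 237 against 147 CPM and 467 against 94.7 CPM, and it was not called (log2 fold change 0.51, edgeR adjusted p = 0.28). Fbln5, which binds Loxl1 to elastin, showed the same order, with 32.5 against 39.1 CPM at 3 dpi and 165 against 47.8 CPM and 187 against 43.9 CPM at 5 dpi. It was called higher (log2 fold change 0.94, SE 0.30, edgeR adjusted p = 0.0107).

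The list of activators and binding partners had 8 of 12 genes tested between IZ and RZ, and 8 rose. Bmp1, the procollagen C-proteinase that frees Lox from its propeptide, was at 56.5, 57.3 and 57.2 CPM in the RZ and at 218, 445 and 507 CPM in the IZ (log2 fold change 2.28, SE 0.19, edgeR adjusted p = 2.3e-09). Fn1, fibronectin, which docks the proenzyme, rose by 3.19 on the log2 scale (SE 0.16). Fmod, fibromodulin, a small proteoglycan that guides Lox along collagen, rose by 3.64 (SE 0.27), with 11.6 CPM in the IZ at 3 dpi and 131 and 136 CPM at 5 dpi. Thbs1, thrombospondin-1, a matrix glycoprotein that binds procollagen and its processing enzymes, rose by 3.05 (SE 0.20). Postn, periostin, which scaffolds Bmp1 on fibronectin, rose by 1.66 (SE 0.12). Pcolce, which enhances Bmp1, rose by 0.81 (SE 0.14). From rim to core of the IZ, 1 of the 8 rose and 3 fell, beside 9.44% and 14.1% of all genes tested.

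Before crosslinking, collagen lysines are hydroxylated and the chains folded. All 9 genes of that list were tested between IZ and RZ and 8 rose. Plod2, the telopeptide lysyl hydroxylase, went from 9.03, 5.97 and 11.3 CPM to 31.5, 46.1 and 42.4 CPM (log2 fold change 1.62, SE 0.23). Fkbp10, its folding partner, rose by 2.05 (SE 0.16) and Serpinh1, the collagen chaperone, by 1.44 (SE 0.12).

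The enzymes also need a supply of copper. Of 7 tested of 9 copper genes 1 rose and 2 fell, with a median log2 fold change near 0, where 26.8% of all genes tested were called higher and 27.0% lower. Atox1, which carries copper to the Golgi, rose by 0.45 (SE 0.12, edgeR adjusted p = 0.0040). Commd1 and the metallothionein Mt1 fell by 0.77 (SE 0.14) and 0.69 (SE 0.13), of which the TMM shift of -0.42 is a part. In CPM, Mt1 was at 875, 690 and 1107 in the RZ and at 725, 686 and 759 in the IZ, and Commd1 at 149, 140 and 155 against 135, 115 and 99.2. The summed CPM of the 9 copper genes was higher in the IZ in 3 of 3 sections, at 1545, 1366 and 1869 in the RZ and 1671, 1776 and 1903 in the IZ. Atp7a, the pump that loads lysyl oxidases with copper, was too sparse to be tested, at 0 to 0.753 CPM in these zones.

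Of 15 genes known as inducers or as partners of the Snail pathway, 12 rose and 2 fell between IZ and RZ. Tgfb3 rose by 1.88 (SE 0.20), Snai1 by 1.76 (SE 0.23) and Tgfb1 by 0.82 (SE 0.18). Vegfa, a target of hypoxia signalling, fell by 2.13 (SE 0.17). Of 3 tested other crosslinking enzymes, Pxdn, the peroxidasin that crosslinks collagen IV, rose by 0.94 (SE 0.14). Tgm2, a transglutaminase, was not called (log2 fold change 0.19, SE 0.17, edgeR adjusted p = 0.37). It fell by 1.12 on the log2 scale from rim to core (SE 0.15, edgeR adjusted p = 7.4e-06).

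Over 13 profiles, the control and the 4 zones of the 3 infarcted sections, each tested member was set beside 4097 genes by Pearson's r of log2 CPM. The profiles share sections and a common gradient of cardiomyocyte RNA, so r describes likeness only. The genes most like Lox were Fbn1 (r = 0.989), C1qtnf6, Pcolce, Cthrc1 and Tspo. Those most like Loxl1 were Col5a2 (r = 0.992), C1qtnf6, Col3a1, Bgn and Efemp2. Loxl3 came nearest to Col5a1 (r = 0.993), Fbln2, Col1a1, Col1a2 and Tmed3. The 5 genes most like Loxl2 held no collagen and included Slc15a3, Qsox1, Rpl3 and Ckap4. Among members, Loxl1 and Loxl3 were most alike (r = 0.985) and Loxl1 and Loxl2 least (r = 0.936). With the control left out, the r of the leading genes named here with a value was 0.972, 0.986 and 0.991 over 12 profiles. The order among the named genes then changed. C1qtnf6 lay above Fbn1 for Lox (r = 0.986) and just above Col5a2 for Loxl1 (0.98591 against 0.98585).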

How the data were processed

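Visium libraries of 4 heart sections were mapped by the authors with Space Ranger 1.3.1 per the file headers, to a mouse reference with GFP added, and spots under tissue were picked by hand. The build is mm10 per the labels, and no genome position is used here. The deposited matrices hold whole UMI counts for each gene in each spot, not scaled in any way. Spots marked as tissue were kept with at least 500 UMIs, 250 genes and at most 50% mitochondrial UMIs, and 13 mitochondrial genes were left out of all totals.

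The IZ is made of connected patches of at least 10 spots whose cardiomyocyte share was under 0.5 times the 90th percentile of their section. UMIs were summed by class and section and compared with edgeR 4.0.16 (quasi-likelihood test, TMM scaling, default low-count filter, section as a block; R 4.3.3, limma 3.58.1), with Benjamini-Hochberg adjustment and a threshold of 0.05. The SE is the log2 fold change divided by the root of the F statistic. The section, that is the heart, is the replicate. With the section as a block, level differences between hearts are taken out. The p-values then measure how far the differences between classes within a section vary over the 3 sections, which are hearts of 2 time points. Intervals are exact Poisson or binomial intervals at 95%. The test was tried on simulated data. DESeq2 1.42.0, other scalings, filters, zone limits and each section left out were alternatives.

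The members and the gene lists were chosen with earlier results of these data known. All members are reported. From each pathway list, up to 4 genes with the largest called change between IZ and RZ are named beside a fixed set that includes Bmp1, Pcolce, Eln, Fbln5, Plod2, Atp7a and Tgm2, and likeness was ranked over genes reaching 50 CPM, with a pseudocount of 1. One gene that these rules name is not reported here. Marker lists of mesothelial cells, lymphocytes and erythrocytes were also read. The first 2 were too sparse to be tested between zones but had 1 to 3 genes tested within the IZ, and the 4 globin genes fell between IZ and RZ. A total of 184 barcodes occur in all 4 matrices, since the array's barcodes are fixed. Loxl3 and Htra2 overlap on opposite strands.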

Additional observations from a re-analysis of the deposited data

Results flagged for a closer look

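In the male-labelled 5 dpi section, the 623 spots not marked as lying under tissue, which enter no comparison, held all 5 members above the level of the control section. Lox was at 515 CPM, Loxl1 at 560 CPM, Loxl2 at 209 CPM, Loxl3 at 266 CPM and Loxl4 at 4.93 CPM (11 UMIs). The lower bounds of the counting intervals, the lowest being 2.46 CPM for Loxl4, were above the upper bounds of the control, which were 2.34, 86.1, 10.2 and 9.86 CPM in the same order and, for Loxl4 with 0 UMIs, the limit of 3 UMIs at 0.80 CPM.

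From rim to core of the IZ, the log2 CPM ratio of Lox was -0.14 at 3 dpi but 0.22 and 0.11 in the 5 dpi sections. Between endothelial-rich and endothelial-poor IZ spots, the log2 CPM ratio of Loxl2 was 0.18 at 3 dpi but -0.23 and -0.31 at 5 dpi. In both cases the sections of the 2 time points lie on opposite sides of 0, and the difference was not tested, since 3 dpi has 1 heart.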

How the results depend on the processing

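Of 102 counts of called members recomputed under the alternatives, 80 were the same or within 1.5 times, and of the 225 log2 fold changes of called members 183 stayed called in the same direction, 41 were no longer called and 1 changed its sign. All 4 tested members stayed called between IZ and RZ under every alternative run, 5 members stayed above the control and 3 stayed higher in both 5 dpi sections. Without the section as a block, 2 members were called between BZ2 and RZ and 0 between BZ1 and RZ, core and rim, collagen classes and macrophage classes. With the IZ limit at percentile 1 of the control, 0 were called between BZ2 and RZ and 0 between BZ1 and RZ but 4 between core and rim, where Lox and Loxl1 then rose by 1.35 and 0.67. A lower limit on the cardiomyocyte share left 1 call between core and rim. DESeq2 called 0 members between core and rim and 0 between macrophage classes, and library totals alone 1 of the latter. Without the low-count filter there were 2 calls between BZ1 and RZ and 1 between endothelial classes. Ranking into 2 classes gave 0 calls between macrophage classes. Leaving out each section in turn gave 0 to 1 calls between BZ1 and RZ, 0 to 2 between core and rim, 0 to 2 between macrophage classes and 0 to 1 between endothelial classes. Uncalled values near 0 changed sign. Lox between core and rim was 0.078 with library totals alone and ranged from -0.16 to 0.052 with 1 section left out. Loxl3 between macrophage classes was 0.011 with all spots under tissue, 0.045 with library totals alone, 0.001 with 2 classes, and -0.070 to 0.046 with 1 section left out. Loxl3 between mural classes was -0.039 with 2 classes. Apart from what the construction shows (fewer sections, other spots in a class), the cause was not tested. The zones and classes of a section are paired by that section, which the block carries, and the groups share no replicate numbers in the labels by which sections could be paired. Depth limits Loxl4, which had at most 35 UMIs a section and passed no low-count filter.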
